A study of Mus musculus with 15 samples.

Results

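Expression of 45 genes that run the cell cycle and copy the DNA (cyclins, cyclin-dependent kinases, the retinoblastoma and E2F families, replication origin factors and mitotic regulators) was compared across 5 kinds of mouse cells on Affymetrix arrays. A gene was measured by the probe set annotated to it alone with the highest mean over the 15 arrays. This gave 44 of the 45 listed genes among 18193 genes in all, and Ccnb1 had no probe set naming it alone. The groups, with 3 arrays each, were fibroblasts of mouse embryos (MEF), CL11, a line of embryonic stem (ES) cells, and 3 lines of induced pluripotent stem (iPS) cells made from such fibroblasts, namely IP14D-1, IP20D-3 and IP14D-101. Per the labels, MEF, CL11, IP14D-1 and IP20D-3 have the B6D2F1 background and IP14D-101 has C57x129S2, so line and background cannot be told apart for IP14D-101. The ES and iPS cells had been grown with the cytokine LIF on fibroblast feeders stopped by mitomycin C, in medium with either FBS or KOSR, and which medium a line had is not given in the labels used here. The 3 samples of a group are called biological replicates in the design text, and p-values measure the spread between these samples.

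A cell enters the cycle when D-type cyclins with CDK4 or CDK6, and then cyclin E with CDK2, phosphorylate the retinoblastoma proteins and so free the E2F factors to switch on replication genes. Origins are licensed in G1 by loading the MCM helicase, DNA is then copied in S phase, and a later wave of genes, driven by B-MYB, FOXM1 and the DREAM and MMB complexes, serves mitosis. Mouse ES cells are known for a short G1 phase, for high cyclin E and CDK2 activity that varies little through the cycle, and for low levels of CDK inhibitors and D cyclins, while cultured fibroblasts divide more slowly and keep a working G1 checkpoint.

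Levels are given as log2(signal + 16) after each array was scaled to a common trimmed mean, differences as log2 differences with their standard error (SE) from the limma model, and a gene counted as higher or lower where the Benjamini-Hochberg adjusted p over all 18193 genes was under 0.05. Background was set at a log2 signal of 11.05, the 95th percentile of 38 olfactory receptor genes, and group means of 43 of the 44 genes lay above it in MEF, with E2f2 below, and of 44 of 44 in each of the 4 lines. The labels were borne out by markers: 9 of 9 pluripotency markers were above background in every line and 1 of 9 in MEF, while 12 of 12 fibroblast markers were above it in MEF and 4, 8, 5 and 5 of 12 in CL11 and IP14D-1 and in IP14D-101 and IP20D-3. The summed signal of the fibroblast list was 5445457 to 6065469 in MEF and 182194 to 316409 over the arrays of the 4 lines. Of 6 macrophage markers, 6 were above background in MEF, 3 in IP14D-1 and 2 in each other line. Their summed signal was 62303 to 66105 in MEF and 9591 to 30046 over the arrays of the lines. The part of other cell types within MEF in the results was not tested. The share of RNA from feeder cells in the lines, and its part in the results, was not tested. Nor can fewer cycling cells and less RNA per cell be told apart in such bulk samples.

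Most of the cell cycle genes were higher in every pluripotent line than in fibroblasts. Of the 44 genes, 38 were higher and 4 lower in CL11 than in MEF, where 30.3% and 23.8% of all genes were called higher and lower. In IP14D-1, 37 were higher and 3 lower (29.9% and 22.9% of all genes). In IP14D-101, 38 were higher and 5 lower (30.4% and 24.7%). In IP20D-3, 36 were higher and 3 lower (30.4% and 23.7%). The median log2 difference of the 44 genes was 1.95 in CL11, 1.64 in IP14D-1, 2.06 for IP14D-101 and 1.73 in IP20D-3, beside 0.07, 0.13, 0.05 and 0.10 for all genes. The 4 comparisons share the MEF arrays and are therefore not independent of each other. A total of 34 genes were higher in all 4 lines, as were 23.5% of all genes, and 3 (Ccnd2, Cdk6 and Rbl2) were lower in all 4, as were 17.3% of all genes. The other 7 were Ccnd1, Ccnd3, Ccne2, E2f2, Rb1, Rbl1 and Tyms. With the signals left unscaled, Cdc25b, Cdk2, Cdk4 and Mki67 dropped out of the 34, and with all probe sets of a gene averaged, Cdk2, E2f1 and Mcm6 did.

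The direction depended on the role. All 9 origin licensing genes, 7 of 7 mitotic entry genes and 10 of 10 mitotic kinase, checkpoint and spindle genes were higher in all 4 lines. So were 3 of 4 genes each of the cyclin E and A group and of the DNA synthesis group. Of the 5 retinoblastoma and E2F genes, 1 was higher and 1 lower in all 4 lines, and of the 5 D cyclins and their kinases, 1 was higher and 2 lower. Other probe sets of the called genes, where above background, had the same sign in 48 of 48 cases for CL11, 46 of 47 for IP14D-1, 45 of 46 for IP14D-101 and 43 of 44 for IP20D-3, and the exceptions were probe sets of Ccnd1 and Ccnd3.

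**Figure D1:**
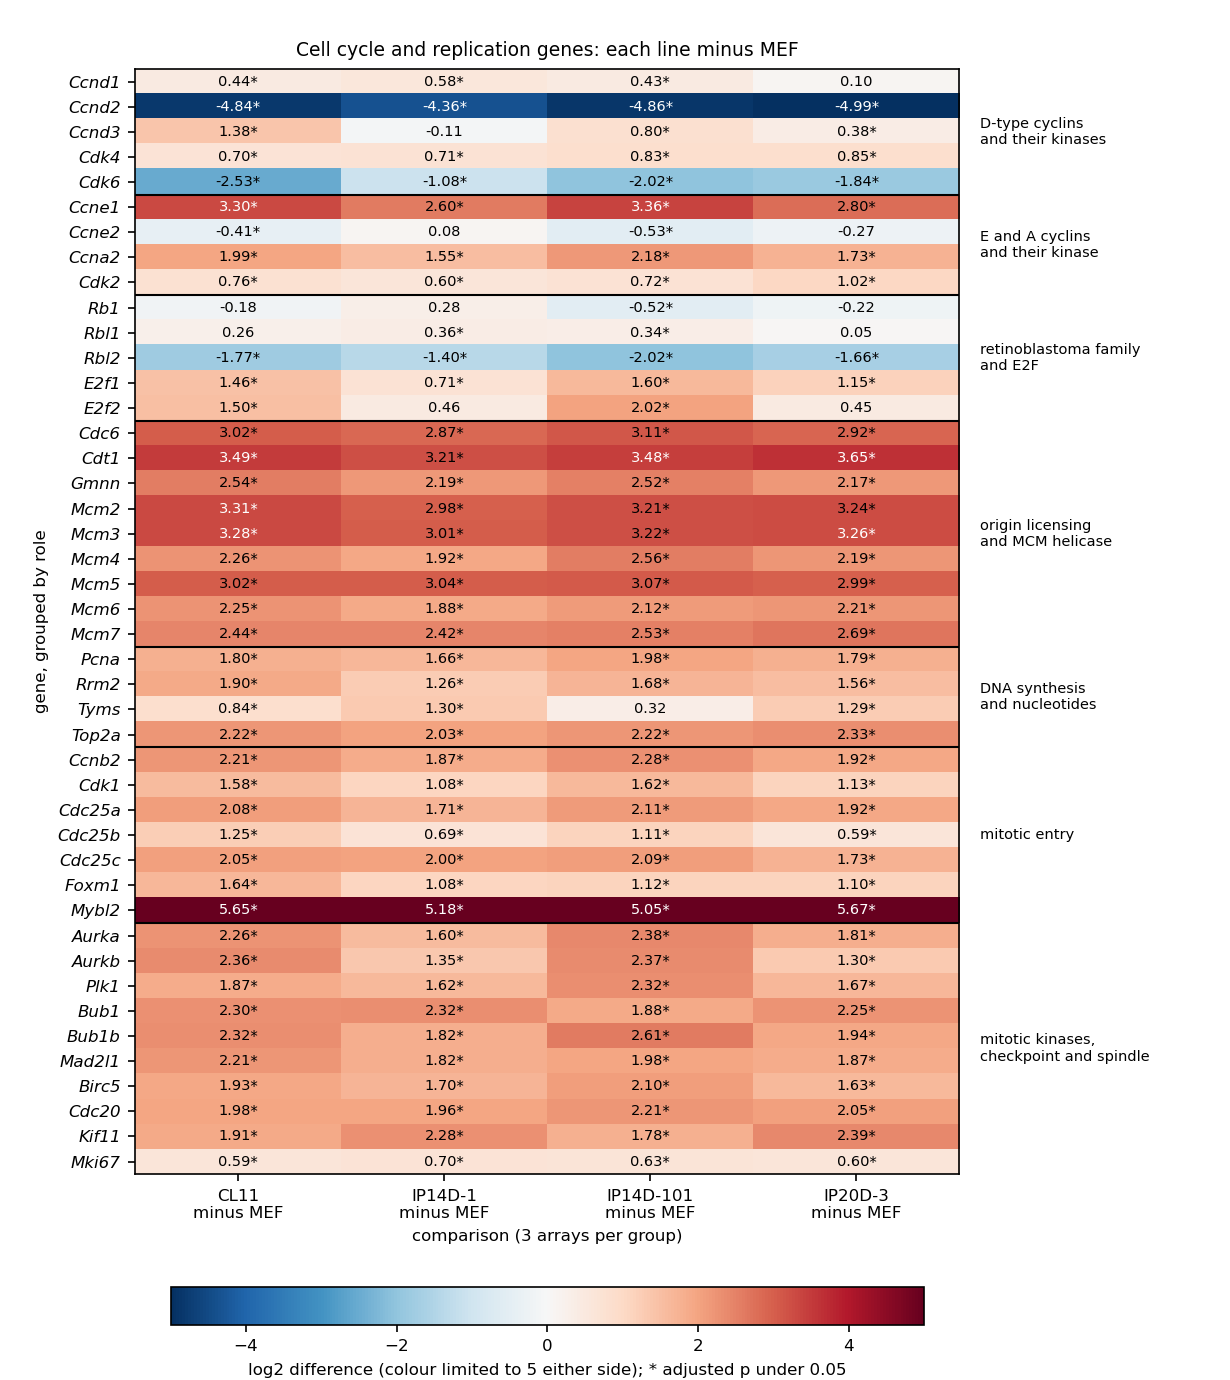
Log2 difference of each line from MEF (columns, 3 arrays per group) for the 44 cell cycle and replication genes (rows, grouped by role), with an asterisk where the adjusted p was under 0.05. Ccnd2, Cdk6 and Rbl2 are blue in all 4 columns, Mybl2 is the darkest red at 5.05 to 5.67, and unscaled signals turn the sign of Ccnd1, Rbl1, Ccnd3, Cdc25b or Mki67 in IP20D-3 or IP14D-101.

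Among the D-type cyclins, which sense growth signals in G1, Ccnd2 was far lower in the pluripotent lines. Its log2 signal was 18.90, 18.91 and 18.81 in MEF, 14.11, 13.95 and 14.06 in CL11, 14.63, 14.34 and 14.59 for IP14D-1, 14.29, 13.87 and 13.88 for IP14D-101 and 13.67, 14.05 and 13.94 in IP20D-3. Every MEF array was thus above every array of the lines by more than 4 log2 units. The differences from MEF were -4.84 ± 0.12, -4.36 ± 0.12, -4.86 ± 0.12 and -4.99 ± 0.12 (SE) in CL11 and IP14D-1 and in IP14D-101 and IP20D-3, between 20.5-fold and 31.8-fold lower, with adjusted p at or under 6.50e-16. All 6 other probe sets of Ccnd2 also showed it lower, with -4.63 to -5.58 in CL11.

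Cdk6, a kinase partner of the D cyclins, was lower in the lines by a varying amount. Its log2 signal was 15.99, 15.88 and 15.82 in MEF, 13.38, 13.34 and 13.38 in CL11, 14.77, 14.97 and 14.72 for IP14D-1, 13.9980, 14.21 and 13.43 for IP14D-101 and 13.83, 14.09 and 14.24 in IP20D-3. CL11 was lowest, IP14D-1 highest of the lines and IP14D-101 and IP20D-3 overlapped between them, and no line reached MEF. The differences from MEF were -2.53 ± 0.15, -1.08 ± 0.15, -2.02 ± 0.15 and -1.84 ± 0.15. Cdk4, the other kinase of this pair, was slightly higher. It measured 16.77, 16.91 and 16.77 in MEF, 17.44, 17.56 and 17.55 in CL11, 17.45, 17.46 and 17.67 for IP14D-1, 17.56, 17.55 and 17.84 for IP14D-101 and 17.74, 17.55 and 17.71 in IP20D-3. All 12 arrays of the lines exceeded the MEF arrays, by 0.70 ± 0.09 in CL11 up to 0.85 ± 0.09 in IP20D-3, a rise of 1.63-fold to 1.81-fold. In IP20D-3 this rise lost its call on unscaled signals, at 0.22 (adjusted p = 0.0916).

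The remaining D cyclins moved little or unevenly. Ccnd1 was 16.38 ± 0.02 in MEF (SD, n = 3) and differed by 0.44 ± 0.08 in CL11, 0.58 ± 0.08 in IP14D-1 and 0.43 ± 0.08 in IP14D-101, which passed the test, and by 0.10 ± 0.08 in IP20D-3, which did not (adjusted p = 0.371). Without IP20D-3 replicate 1 the value in IP20D-3 was 0.20 (adjusted p = 0.0318), and on unscaled signals the sign turned in IP14D-101 and IP20D-3, to -0.14 and -0.54. Ccnd3 measured 16.59, 16.51 and 16.36 in MEF, 17.78, 17.96 and 17.86 in CL11, 16.44, 16.32 and 16.37 for IP14D-1, 17.21, 17.09 and 17.55 for IP14D-101 and 16.88, 16.85 and 16.86 in IP20D-3. CL11 was the highest group and IP14D-1 overlapped with MEF. The difference from MEF was 1.38 ± 0.10 in CL11, 0.80 ± 0.10 for IP14D-101 and 0.38 ± 0.10 in IP20D-3, and in IP14D-1 it was -0.11 ± 0.10 (adjusted p = 0.387). The 3 probe sets of Ccnd3 disagreed: in CL11 a second, above background, gave 0.31 and a dim one -1.42, and their mean of 0.09 did not pass (adjusted p = 0.782). The mean was 0.05 in IP20D-3 (adjusted p = 0.881) and -0.33 in IP14D-101 (adjusted p = 0.259), and on unscaled signals the IP20D-3 value turned to -0.26.

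Cyclin E1, which with CDK2 drives entry into S phase, was among the genes with large rises, and its relative cyclin E2 was not. Ccne1 measured 14.18, 14.46 and 14.05 in MEF, 17.47, 17.56 and 17.57 in CL11, 16.83, 16.73 and 16.91 for IP14D-1, 17.57, 17.47 and 17.74 for IP14D-101 and 16.79, 17.25 and 17.05 in IP20D-3. No array of a line came near the MEF arrays, and CL11 and IP14D-101 lay above the other pair of lines. The differences were 3.30 ± 0.11, 2.60 ± 0.11, 3.36 ± 0.11 and 2.80 ± 0.11, or 9.87-fold, 6.04-fold, 10.3-fold and 6.98-fold higher (highest adjusted p 4.28e-13). Ccne2 measured 14.45, 14.36 and 14.68 in MEF, 14.13, 13.99 and 14.16 in CL11, 14.52, 14.65 and 14.56 for IP14D-1, 14.19, 14.16 and 13.54 for IP14D-101 and 14.15, 14.46 and 14.07 in IP20D-3. Its arrays in IP14D-1 and IP20D-3 overlapped with MEF. It was lower in CL11, at -0.41 ± 0.15, and in IP14D-101, at -0.53 ± 0.15, and the values in IP14D-1 and IP20D-3 were 0.08 ± 0.15 and -0.27 ± 0.15 (adjusted p = 0.709 and 0.15). The CL11 call was lost without CL11 replicate 1, CL11 replicate 2 or MEF replicate 3, at -0.42, -0.35 and -0.32 (adjusted p = 0.0527, 0.101 and 0.13), and both calls were lost with median scaling.

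Cyclin A2, which acts in S phase and G2, rose in all 4 lines, by 1.99 ± 0.09 in CL11, 1.55 ± 0.09 in IP14D-1, 2.18 ± 0.09 for IP14D-101 and 1.73 ± 0.09 in IP20D-3. Cdk2, the kinase of cyclins E and A, rose by 0.76 ± 0.09, 0.60 ± 0.09, 0.72 ± 0.09 and 1.02 ± 0.09. A second Cdk2 probe set, below background in both groups, pointed the other way, and the mean of both probe sets was -0.82 in CL11, -0.43 in IP14D-1 and -0.87 in IP14D-101, none of which passed the test (adjusted p = 0.221, 0.555 and 0.19), and 0.19 in IP20D-3 (adjusted p = 0.804).

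Within the retinoblastoma family, which holds E2F factors in check, only Rbl2 (p130, the pocket protein of resting cells) was lower in all 4 lines in this fit. It measured 14.09, 13.90 and 14.06 in MEF, 12.01, 12.28 and 12.45 in CL11, 12.69, 12.71 and 12.46 for IP14D-1, 12.32, 11.93 and 11.74 for IP14D-101 and 12.47, 12.64 and 11.96 in IP20D-3. The lowest MEF array was above the highest array of any line, and among the lines IP14D-1 lay highest and IP14D-101 lowest, without overlap of that pair. The differences were -1.77 ± 0.22, -1.40 ± 0.22, -2.02 ± 0.22 and -1.66 ± 0.22, or 2.63-fold to 4.05-fold lower, and its second probe set gave -1.52 in CL11. Rb1 itself differed by -0.18 ± 0.14, 0.28 ± 0.14 and -0.22 ± 0.14 in CL11, IP14D-1 and IP20D-3, which did not pass (adjusted p = 0.296, 0.102 and 0.196), and was lower in IP14D-101, at -0.52 ± 0.14, a call lost with median scaling at -0.18 (adjusted p = 0.28). Rbl1 (p107) was higher by 0.36 ± 0.13 in IP14D-1 and 0.34 ± 0.13 in IP14D-101. Its values were 0.26 ± 0.13 in CL11 and 0.05 ± 0.13 in IP20D-3, short of the threshold, and unscaled signals turned the sign in IP14D-101 and IP20D-3 to -0.23 and -0.59. The Rbl1 calls were lost without MEF replicate 1, at 0.27 in IP14D-1 and 0.25 in IP14D-101 (adjusted p = 0.108 and 0.144), without IP14D-1 replicate 1 at 0.31 (adjusted p = 0.0834), and without IP14D-101 replicate 1 or 2 at 0.32 and 0.30 (adjusted p = 0.0779 and 0.0921).

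The activating factor E2f1 was higher in all 4 lines. It measured 13.57, 13.9969 and 13.66 in MEF, 15.27, 15.17 and 15.16 in CL11, 14.45, 14.34 and 14.57 for IP14D-1, 15.16, 15.36 and 15.51 for IP14D-101 and 14.94, 14.99 and 14.73 in IP20D-3. All arrays of the lines were above MEF, with IP14D-1 the nearest to it. The differences were 1.46 ± 0.12, 0.71 ± 0.12, 1.6040 ± 0.12 and 1.15 ± 0.12, and with the 3 probe sets averaged the rise in IP14D-1 was 0.30 and no longer passed (adjusted p = 0.463). E2f2, a second activator, measured 10.67, 10.63 and 10.69 in MEF, all under background, 12.49, 11.77 and 12.24 in CL11, 11.12, 11.38 and 10.88 for IP14D-1, 12.79, 12.63 and 12.63 for IP14D-101 and 10.50, 12.04 and 10.81 in IP20D-3. It was above background on all arrays of CL11 and IP14D-101 and on some arrays of IP14D-1 and IP20D-3. Against MEF raised to background it was at least 2.17-fold higher in CL11 and at least 3.1-fold higher in IP14D-101 (adjusted p of the fitted differences 0.00174 and 9.96e-05). In IP14D-1 and IP20D-3 the fitted differences were 0.46 ± 0.37 and 0.45 ± 0.37 and did not pass (adjusted p = 0.326 and 0.335).

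All 9 genes of origin licensing were far higher in every line than in MEF. They had median differences of 3.02, 2.87, 3.07 and 2.92 in CL11 and IP14D-1 and in IP14D-101 and IP20D-3, and the smallest single value was 1.88. Cdt1, which loads the MCM helicase onto origins, measured 14.94, 15.04 and 14.70 in MEF, 18.32, 18.41 and 18.40 in CL11, 18.09, 18.10 and 18.11 for IP14D-1, 18.34, 18.27 and 18.48 for IP14D-101 and 18.57, 18.55 and 18.50 in IP20D-3. The arrays of each line lay close together and more than 3 log2 units above the MEF arrays. The differences were 3.49 ± 0.08, 3.21 ± 0.08, 3.48 ± 0.08 and 3.65 ± 0.08, or 9.26-fold to 12.5-fold. Its partner Cdc6 rose by 3.02 ± 0.14, 2.87 ± 0.14, 3.11 ± 0.14 and 2.92 ± 0.14, and geminin (Gmnn), the protein that blocks CDT1 after S phase begins, by 2.54 ± 0.08, 2.19 ± 0.08, 2.52 ± 0.08 and 2.17 ± 0.08.

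All 6 subunits of the MCM helicase ring rose together. Mcm6 had the smallest mean rise of the 9 genes and measured 16.15, 16.35 and 16.14 in MEF, 18.44, 18.50 and 18.43 in CL11, 18.08, 18.12 and 18.06 for IP14D-1, 18.43, 18.21 and 18.37 for IP14D-101 and 18.43, 18.52 and 18.31 in IP20D-3. Its MEF arrays were far below all others, and IP14D-1 was lowest among the lines. The differences were 2.25 ± 0.08, 1.88 ± 0.08, 2.12 ± 0.08 and 2.21 ± 0.08, and the mean of its 3 probe sets, a dim one included, did not pass in IP14D-1 at 0.50 (adjusted p = 0.164). In CL11 the rises of the other subunits were 3.31 ± 0.10 for Mcm2, 3.28 ± 0.08 for Mcm3, 2.26 ± 0.08 for Mcm4, 3.02 ± 0.09 for Mcm5 and 2.44 ± 0.08 for Mcm7. Across the 3 iPS lines they ran from 1.92 for Mcm4 in IP14D-1 to 3.26 for Mcm3 in IP20D-3. Mcm5 was the steadiest, at 3.04 ± 0.09, 3.07 ± 0.09 and 2.99 ± 0.09 in IP14D-1, IP14D-101 and IP20D-3.

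Because these genes moved together, their promoters were read for motifs known from cell cycle genes. Windows from 250 bases before to 50 bases after the start, from RefSeq on GRCm38.p6, were matched for 35 of the 45 genes (38 windows, Ccnb1 included). The E2F motif was searched as TTTCCCGC, TTTCGCGC, TTTGCCGC or TTTGGCGC on both strands, and neighbouring matches can overlap. It was found in 6 of the 8 windows of the licensing genes (75%), in 11 of the 38 windows of all listed genes (28.9%) and in 2.26% of all 32851 windows. A match is a description of the letters and no evidence of binding. Shown are the 160 bases before the start of 3 licensing genes that rose in every line, in transcript orientation and with the E2F matches in capitals: Mcm5 (chr8:75109349-75109508, plus strand), Mcm6 (chr1:128359706-128359865, minus strand) and Cdc6 (chr11:98907991-98908150, plus strand).
Mcm5: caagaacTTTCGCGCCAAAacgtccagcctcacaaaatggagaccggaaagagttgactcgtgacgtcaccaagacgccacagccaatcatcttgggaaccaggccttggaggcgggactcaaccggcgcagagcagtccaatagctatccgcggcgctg
Mcm6: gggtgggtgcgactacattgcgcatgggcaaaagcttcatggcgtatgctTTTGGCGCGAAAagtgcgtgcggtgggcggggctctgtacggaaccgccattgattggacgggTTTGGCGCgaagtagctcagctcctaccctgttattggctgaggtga
Cdc6: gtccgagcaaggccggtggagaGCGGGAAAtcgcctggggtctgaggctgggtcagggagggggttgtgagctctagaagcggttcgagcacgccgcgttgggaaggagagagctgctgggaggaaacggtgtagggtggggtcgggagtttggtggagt
Mcm5 and Mcm6 each carry a pair of overlapping matches on opposite strands, and Mcm6 another match nearer its start. In Cdc6 the match lies on the other strand, as GCGGGAAA.

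The 4 genes of DNA synthesis had median differences of 1.85, 1.48, 1.83 and 1.67 in CL11 and IP14D-1 and in IP14D-101 and IP20D-3. Top2a, the topoisomerase that untangles copied DNA, measured 16.30, 16.31 and 16.35 in MEF, 18.46, 18.57 and 18.60 in CL11, 18.30, 18.43 and 18.32 for IP14D-1, 18.53, 18.65 and 18.45 for IP14D-101 and 18.76, 18.58 and 18.64 in IP20D-3. The lines lay close together and well apart from MEF, with differences of 2.22 ± 0.07, 2.03 ± 0.07, 2.22 ± 0.07 and 2.33 ± 0.07. Pcna, the sliding clamp of the polymerases, rose by 1.66 ± 0.07 in IP14D-1 to 1.98 ± 0.07 in IP14D-101. Rrm2, the ribonucleotide reductase subunit that supplies deoxynucleotides, rose by 1.26 ± 0.06 in IP14D-1 to 1.90 ± 0.06 in CL11.

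Tyms, the enzyme that makes thymidylate, varied more. It measured 12.09, 12.03 and 12.12 in MEF, 13.08, 12.73 and 12.95 in CL11, 13.30, 13.40 and 13.43 for IP14D-1, 12.72, 12.74 and 11.74 for IP14D-101 and 13.47, 13.14 and 13.49 in IP20D-3. The third IP14D-101 array fell below MEF, while all other arrays of the lines were above it. The differences were 0.84 ± 0.23 in CL11, 1.30 ± 0.23 in IP14D-1 and 1.29 ± 0.23 in IP20D-3, and 0.32 ± 0.23 in IP14D-101 (adjusted p = 0.265). Without IP14D-101 replicate 3 the last value was 0.65 and passed (adjusted p = 0.00477). With its 4 probe sets averaged, Tyms passed in none of CL11, IP14D-1 and IP20D-3, at 0.83, 1.27 and 1.38 (adjusted p = 0.254, 0.0758 and 0.0537).

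Of the genes of mitotic entry, Mybl2 showed the largest difference among the 44 genes in each of the 4 lines. It encodes B-MYB, the factor that switches on mitotic genes and is known to be abundant in ES cells. Its log2 signal was 12.93, 12.92 and 12.94 in MEF, 18.53, 18.63 and 18.60 in CL11, 18.13, 18.21 and 18.01 for IP14D-1, 17.98, 17.87 and 18.10 for IP14D-101 and 18.70, 18.54 and 18.57 in IP20D-3. The spread within each group was small beside the gap of more than 4 log2 units to MEF. The differences were 5.65 ± 0.07, 5.18 ± 0.07, 5.05 ± 0.07 and 5.67 ± 0.07, which correspond to 50.3-fold, 36.3-fold, 33.1-fold and 51-fold, with adjusted p at or under 1.87e-19.

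The phosphatase gene Cdc25b, which activates mitotic CDK1, had the smallest mean rise of this role. It measured 12.85, 13.13 and 12.88 in MEF, 14.32, 13.99 and 14.29 in CL11, 13.61, 13.77 and 13.55 for IP14D-1, 13.92, 14.08 and 14.18 for IP14D-101 and 13.56, 13.50 and 13.58 in IP20D-3. CL11 and IP14D-101 lay above the other pair of lines and all 4 above MEF. The rises were 1.25 ± 0.13, 0.69 ± 0.13, 1.11 ± 0.13 and 0.59 ± 0.13, and on unscaled signals the value in IP20D-3 turned to -0.041 (adjusted p = 0.86). The related phosphatases rose more, Cdc25a by 1.71 to 2.11 and Cdc25c by 1.73 to 2.09 over the lines. Cdk1, the mitotic kinase, rose by 1.08 ± 0.07 in IP14D-1 to 1.62 ± 0.07 in IP14D-101, and its partner Ccnb2 by 1.87 ± 0.10 to 2.28 ± 0.10 in the same lines. Foxm1, the other main activator of mitotic genes, rose by 1.64 ± 0.12 in CL11 and by 1.08 to 1.12 in the iPS lines.

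The 10 mitotic kinase, checkpoint and spindle genes rose in every line. Bub1, a kinase of the spindle checkpoint, had the largest mean rise and measured 14.84, 14.98 and 15.16 in MEF, 17.33, 17.29 and 17.26 in CL11, 17.26, 17.34 and 17.34 for IP14D-1, 16.96, 17.13 and 16.54 for IP14D-101 and 17.18, 17.31 and 17.23 in IP20D-3. The lines overlapped except that IP14D-101 was lower, most of all on replicate 3. The differences from MEF were 2.30 ± 0.11, 2.32 ± 0.11, 1.88 ± 0.11 and 2.25 ± 0.11. Mki67, the proliferation marker Ki-67, had the smallest rise. It measured 15.76, 15.72 and 15.89 in MEF, 16.27, 16.42 and 16.45 in CL11, 16.45, 16.49 and 16.53 for IP14D-1, 16.59, 16.78 and 15.90 for IP14D-101 and 16.34, 16.38 and 16.45 in IP20D-3. Every array of the lines was above MEF, the third IP14D-101 array barely so. The differences were 0.59 ± 0.14, 0.70 ± 0.14, 0.63 ± 0.14 and 0.60 ± 0.14, or 1.5-fold to 1.62-fold, and on unscaled signals they no longer passed except in IP14D-1 (0.17, 0.064 and -0.034).

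Aurkb, the kinase of the chromosomal passenger complex, measured 13.93, 13.89 and 13.81 in MEF, 16.26, 16.18 and 16.29 in CL11, 15.11, 15.08 and 15.48 for IP14D-1, 16.23, 16.14 and 16.38 for IP14D-101 and 15.08, 15.28 and 15.19 in IP20D-3. CL11 and IP14D-101 formed one level, IP14D-1 and IP20D-3 a lower one, and MEF the lowest. The rises over MEF were 2.36 ± 0.10, 1.35 ± 0.10, 2.37 ± 0.10 and 1.30 ± 0.10. In CL11 the other genes of this role rose by 2.26 for the spindle kinase Aurka, 1.87 for the mitotic kinase Plk1, 2.32 and 2.21 for the checkpoint genes Bub1b and Mad2l1, 1.93 for survivin (Birc5), 1.98 for the anaphase activator Cdc20 and 1.91 for the spindle motor Kif11. In the iPS lines these 7 genes ran from 1.6011 (Aurka in IP14D-1) to 2.61 (Bub1b in IP14D-101).

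**Figure D2:**
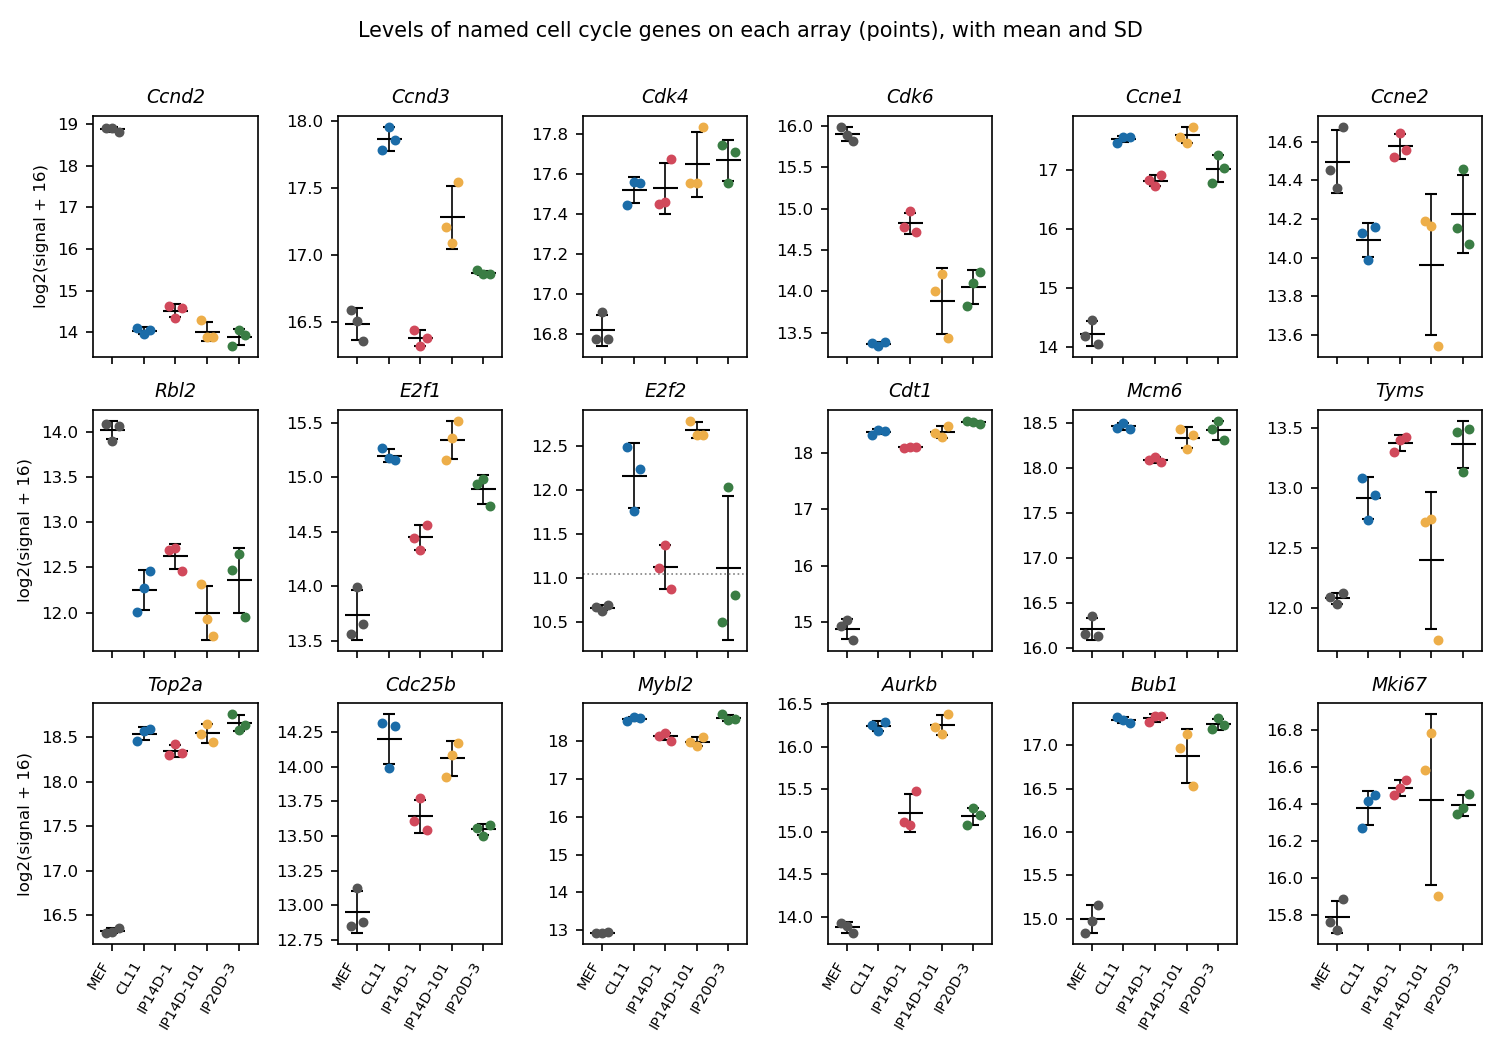
Level on each array (points, log2(signal + 16)) with the mean and SD of the 3 arrays per group for 18 named cell cycle genes, each panel with its own axis and a dotted line at background where it falls inside. MEF stand alone at the top for Ccnd2, Cdk6 and Rbl2 and at the bottom for Ccne1, Cdt1, Top2a and Mybl2, and the third IP14D-101 array lies low for Tyms, Bub1 and Mki67.

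The promoters of the mitotic kinase, checkpoint and spindle genes mostly held a different motif. The CHR element, searched as TTTGAA or TTCGAA on both strands (TTCGAA reads the same on both), was found in 7 of 9 windows of the mitotic kinase, checkpoint and spindle genes (77.8%), in 15 of 38 windows of all listed genes (39.5%) and in 19.2% of all windows. The E2F motif was in 0 of those 9 windows, and CHR in 2 of the 8 licensing windows (25%). The mitotic entry genes were not split in this way, with E2F in 2 of 6 windows (33.3%) and CHR in 3 of 6 (50%). The CCAAT box, searched as CCAAT on both strands, was in 25 of 38 windows (65.8%) and in 37.4% of all windows. Shown are the 160 bases before the start of 3 genes with CHR or E2F matches in capitals: Cdk1 (chr10:69352913-69353072, minus strand), which has both motifs, Cdc20 (chr4:118437344-118437503, minus strand) and Kif11 (chr19:37376222-37376381, plus strand).
Cdk1: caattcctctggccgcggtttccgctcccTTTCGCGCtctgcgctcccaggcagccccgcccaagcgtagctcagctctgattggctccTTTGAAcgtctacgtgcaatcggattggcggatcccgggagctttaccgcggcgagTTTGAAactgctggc
Cdc20: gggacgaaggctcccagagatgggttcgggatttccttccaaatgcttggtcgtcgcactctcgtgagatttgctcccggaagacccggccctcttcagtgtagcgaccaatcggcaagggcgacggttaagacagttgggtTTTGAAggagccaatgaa
Kif11: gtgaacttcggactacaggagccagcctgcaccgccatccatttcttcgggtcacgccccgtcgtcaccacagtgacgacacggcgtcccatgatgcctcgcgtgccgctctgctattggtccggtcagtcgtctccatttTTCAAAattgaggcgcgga
In Cdc20 and Kif11 the capitals are CHR matches close to the start, and in Kif11 the match lies on the other strand. In Cdk1 the first match is E2F and the other pair are CHR. Small windows of few letters match by chance, as the share over all windows shows, and groups here hold 2 to 9 windows.

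**Figure D3:**
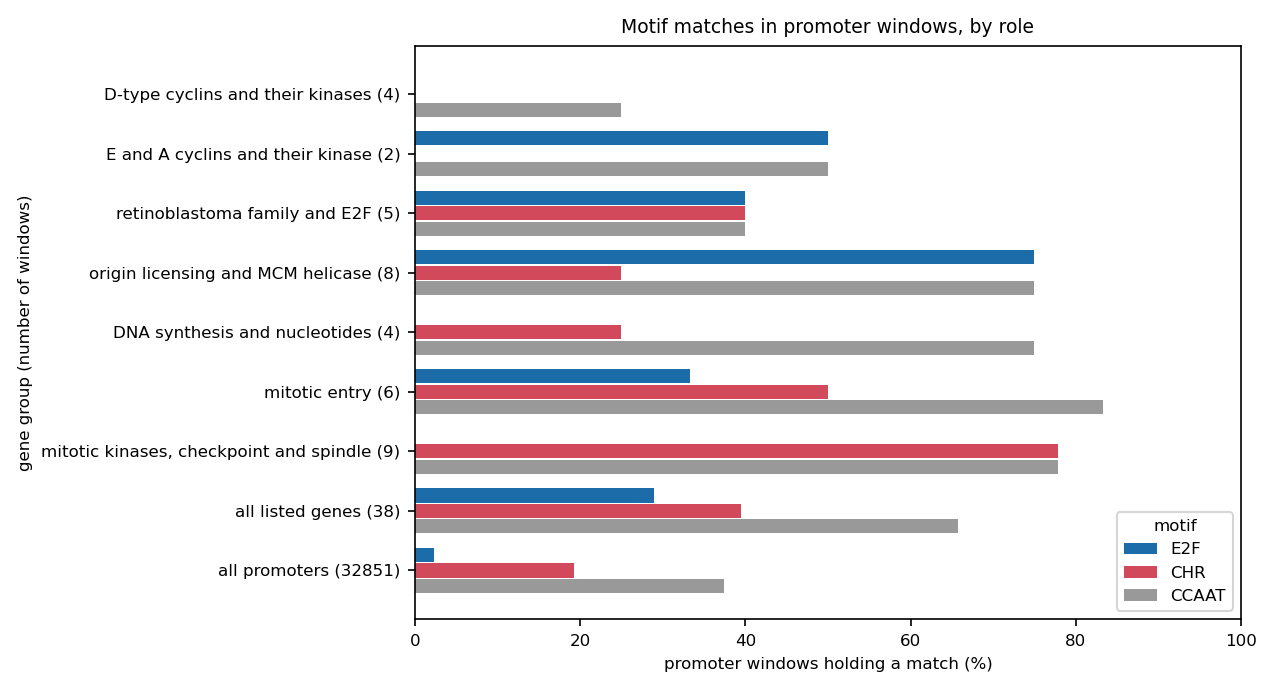
Percent of promoter windows (x axis) with at least 1 match to the E2F, CHR or CCAAT letters, for each role, all listed genes and all promoters, with the number of windows in brackets. E2F matches are most frequent in the licensing genes (75%) and CHR matches in the mitotic kinase, checkpoint and spindle genes (77.8%), beside 2.26% and 19.2% of all promoters.

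The inhibitors of the cyclin-dependent kinases, listed apart from the 44 genes, went mostly the other way. Of the 7 measured, 5 were lower and 1 higher in CL11 than in MEF, and 6 were lower and 1 higher in each iPS line. Of all genes, 22.9% to 24.7% were lower and 29.9% to 30.4% higher in these comparisons. Cdkn2b (p15, an inhibitor of CDK4 and CDK6) measured 17.34, 17.20 and 17.31 in MEF, 12.12, 12.24 and 12.38 in CL11, 13.44, 13.89 and 13.56 for IP14D-1, 12.42, 12.68 and 12.46 for IP14D-101 and 10.84, 11.37 and 12.15 in IP20D-3. All lines were far below MEF, and 1 IP20D-3 array was below background. The differences were -5.04 ± 0.23, -3.65 ± 0.23, -4.77 ± 0.23 and -5.83 ± 0.23. Cdkn1a (p21, the p53 target that stops the cycle) measured 18.10, 18.27 and 18.01 in MEF, 15.08, 15.19 and 15.15 in CL11, 15.21, 15.16 and 15.33 for IP14D-1, 14.99, 15.15 and 15.30 for IP14D-101 and 14.16, 14.24 and 13.78 in IP20D-3. IP20D-3 was the lowest group and the other 3 lines overlapped. The differences from MEF were -2.99 ± 0.11, -2.89 ± 0.11, -2.98 ± 0.11 and -4.07 ± 0.11.

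Cdkn2c (p18) measured 14.06, 13.83 and 13.85 in MEF, 11.37, 8.89 and 10.57 in CL11, 10.47, 10.36 and 10.97 for IP14D-1, 10.55, 11.61 and 10.63 for IP14D-101 and 10.88, 11.52 and 10.90 in IP20D-3. Most arrays of the lines were below background, so it was at least 6.74-fold, 7.26-fold and 6.38-fold lower in CL11, IP14D-1 and IP14D-101. In IP20D-3, with 2 of 3 arrays below background, the fitted difference was -2.81 ± 0.50. Cdkn2a, the locus of p16 and p19ARF, measured 13.54, 12.80 and 13.75 in MEF, 10.74, 10.95 and 10.89 in CL11, 12.27, 11.70 and 12.15 for IP14D-1, 11.57, 11.20 and 11.20 for IP14D-101 and 10.84, 10.88 and 11.13 in IP20D-3. It stayed above background on all arrays of IP14D-1 and IP14D-101. It was at least 4.96-fold and 4.87-fold lower in CL11 and IP20D-3, and lower in IP14D-1 and IP14D-101, with differences of -1.32 ± 0.30 and -2.04 ± 0.30. Cdkn1b (p27) measured 15.07, 14.86 and 15.36 in MEF, 14.09, 13.45 and 13.66 in CL11, 14.18, 14.50 and 13.86 for IP14D-1, 14.05, 13.85 and 14.01 for IP14D-101 and 14.26, 13.94 and 14.18 in IP20D-3. The lines overlapped with each other and lay below MEF, with differences of -0.92 ± 0.17 in IP14D-1 to -1.37 ± 0.17 in CL11. With all its probe sets averaged the IP14D-1 value was -0.37 (adjusted p = 0.0729).

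Only Cdkn1c was higher in the lines, and Cdkn2d fell the least of the others. Cdkn1c (p57, an imprinted inhibitor) measured 13.16, 12.64 and 12.71 in MEF, 13.99, 14.58 and 14.54 in CL11, 15.09, 15.30 and 15.18 for IP14D-1, 15.73, 15.65 and 15.96 for IP14D-101 and 14.02, 14.80 and 14.46 in IP20D-3. It was higher in every line, with IP14D-101 the highest, by 1.53 ± 0.19, 2.36 ± 0.19, 2.94 ± 0.19 and 1.59 ± 0.19. Cdkn2d, an inhibitor of CDK4 and CDK6, measured 14.72, 14.54 and 14.72 in MEF, 14.47, 14.56 and 14.38 in CL11, 14.39, 14.31 and 14.18 for IP14D-1, 14.44, 14.38 and 14.48 for IP14D-101 and 14.17, 14.16 and 14.12 in IP20D-3. Its values were -0.19 ± 0.09 in CL11 (adjusted p = 0.103), -0.37 ± 0.09 in IP14D-1, -0.23 ± 0.09 for IP14D-101 and -0.51 ± 0.09 in IP20D-3. The IP14D-101 call was lost without IP14D-101 replicate 1 or 2 or MEF replicate 1 or 3, at -0.20 to -0.23, and the sign turned with median scaling (0.12, adjusted p = 0.435).

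**Figure D4:**
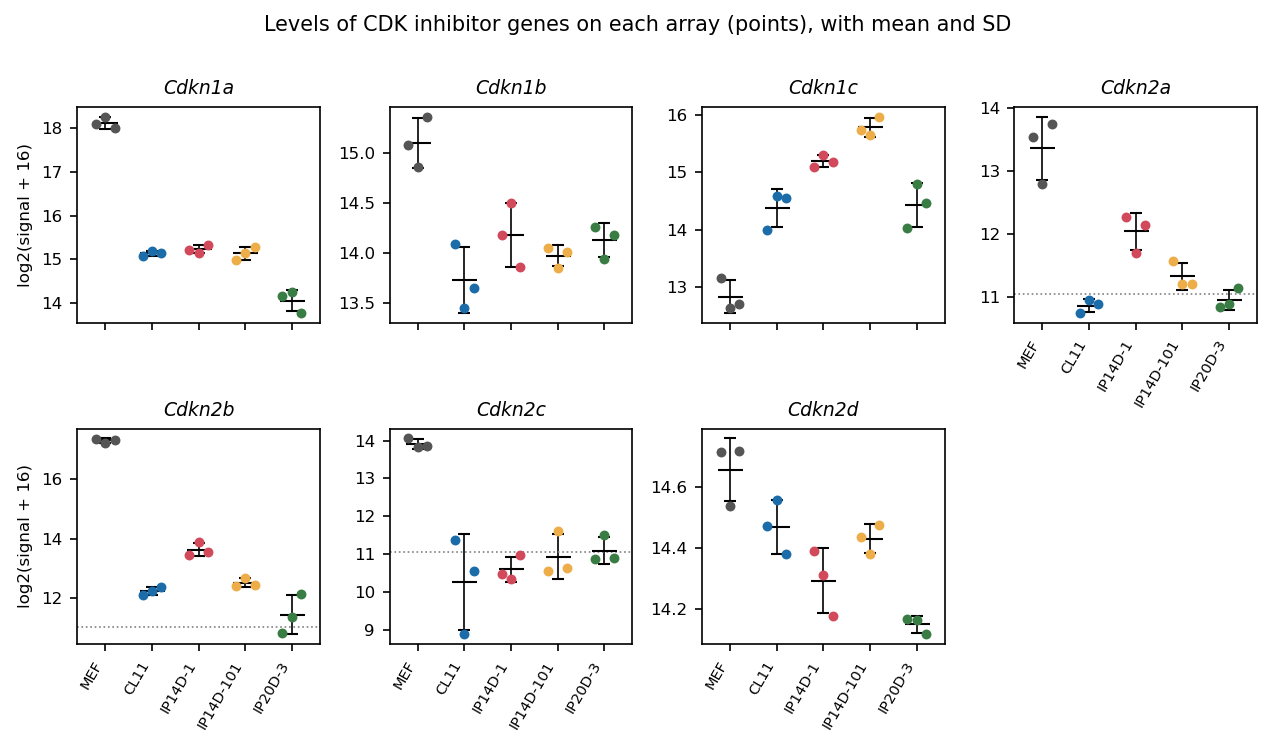
Level on each array (points, log2(signal + 16)) with the mean and SD of the 3 arrays per group for the 7 CDK inhibitor genes, with a dotted line at the background of 11.05. The MEF mean is the highest for 6 of the genes and the lowest for Cdkn1c, and Cdkn2a and Cdkn2c fall to background in some lines.

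The other lists of the pathway, 131 genes with the inhibitors included, mostly rose as well. They held 112 higher and 8 lower genes in CL11, 112 and 10 in IP14D-1, 111 and 12 for IP14D-101 and 113 and 10 in IP20D-3, with medians of 1.59, 1.48, 1.59 and 1.59. Of all genes, 29.9% to 30.4% were higher and 22.9% to 24.7% lower in these comparisons, with medians of 0.05 to 0.13. The same shares stand beside the counts of each list below. Of the 37 origin and replisome genes, 36 were higher and 1 lower in each line. The lower one, Orc4, a subunit of the origin recognition complex, was named after its values were seen and differed by -0.54 in IP14D-101 to -0.45 in IP20D-3. Mcm10, a factor that starts the helicase, measured 12.73 ± 0.12 in MEF (SD, n = 3) and 16.25 ± 0.04 to 16.49 ± 0.11 in the lines, and Rfc5, a subunit of the clamp loader, measured 14.35 ± 0.15 in MEF and 17.39 ± 0.11 to 17.82 ± 0.20 in the lines. Their rises were 3.52 ± 0.08 to 3.76 ± 0.08 and 3.04 ± 0.10 to 3.48 ± 0.10.

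Of the 14 genes of nucleotide supply, 10, 9, 11 and 11 were higher in CL11 and IP14D-1 and in IP14D-101 and IP20D-3 and 1, 1, 2 and 0 lower. Shmt1 and Mthfd1, enzymes of the folate cycle, rose by 3.92 ± 0.13 to 4.24 ± 0.13 and by 2.83 ± 0.09 to 3.53 ± 0.09. The 14 E2F and DREAM factors had 11, 12, 12 and 11 higher. The repressor E2f8 rose by 2.16 ± 0.09 to 2.56 ± 0.09. Lin52, a subunit of the DREAM complex, was below background on 2 of 3 MEF arrays and at least 2.61 times as high in CL11, 3.73 times in IP14D-1 and 3.92 times in IP20D-3. In IP14D-101 its arrays overlapped with MEF, and its call was lost without IP14D-101 replicate 1 or 2 or MEF replicate 1 or 2 (adjusted p = 0.0558 to 0.107). With its probe sets averaged, Lin52 did not pass in CL11, IP14D-101 and IP20D-3, at 0.93, 0.80 and 0.87 (adjusted p = 0.187, 0.259 and 0.218).

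Of 16 genes of cyclin and CDK control, 13, 13, 12 and 13 were higher. Espl1 (separase, which cuts cohesin) rose by 2.97 ± 0.09 to 3.72 ± 0.09 and Ccnf, the cyclin of a ubiquitin ligase, by 2.83 ± 0.10 to 3.59 ± 0.10. Of 9 checkpoint and repair genes, 8, 8, 9 and 8 were higher, with Brca1 at 2.96 ± 0.08 to 3.23 ± 0.08 and Brca2 at 2.27 ± 0.15 to 2.81 ± 0.15, both genes of recombination repair. Of 34 spindle, kinetochore and condensin genes, 33, 33, 30 and 33 were higher and 0 lower in each line. Spc24, a kinetochore subunit, rose by 2.52 ± 0.08 to 2.91 ± 0.08 and Dlgap5, a spindle protein, by 2.45 ± 0.08 to 2.86 ± 0.08.

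The 4 lines were then compared with each other, to ask whether the iPS lines held these genes at the ES cell level. IP14D-101 differed least from CL11, with 2 of the 44 genes higher and 5 lower, beside 6.05% and 5.45% of all genes. IP14D-1 had 5 higher and 23 lower than CL11, beside 11.7% and 12.6% of all genes. IP20D-3 had 4 higher and 15 lower, beside 10.6% and 11.3%. The medians of the 44 genes were 0.02, -0.26 and -0.13 in IP14D-101, IP14D-1 and IP20D-3 minus CL11, where those of all genes were 0.00, 0.03 and 0.02. These 3 comparisons share the CL11 arrays. Among the iPS lines, IP14D-101 had 22 higher and 8 lower than IP14D-1 (14.9% and 13.1% of all genes), IP20D-3 had 11 higher and 4 lower than IP14D-1 (4.87% and 4.32%), and IP20D-3 had 5 higher and 16 lower than IP14D-101 (11% and 12.5%). By an F test over the 4 lines, 35 of the 44 genes varied, beside 38.5% of all genes.

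Most of these differences were small, and the balance of higher and lower genes depended in part on the scaling of the arrays. On unscaled signals it turned in the comparisons with IP14D-1, and with median scaling for IP14D-101 minus CL11. Before scaling, the brightest array had a trimmed mean of 20355.5 and the dimmest of 11141.8, 1.83 times lower. On unscaled signals IP14D-1 had 8 higher and 5 lower genes than CL11, IP14D-101 had 6 higher and 18 lower than IP14D-1, and IP20D-3 had 0 higher and 31 lower than IP14D-1. Unscaled, 0 genes were higher and 5 lower in IP14D-101 than in CL11, 0 higher and 19 lower in IP20D-3 than in CL11, and 3 higher and 16 lower in IP20D-3 than in IP14D-101. With median scaling the same counts were 1 and 26 for IP14D-1 minus CL11, 2 and 1 for IP14D-101 minus CL11, 2 and 15 for IP20D-3 minus CL11, 31 and 3 for IP14D-101 minus IP14D-1, 9 and 2 for IP20D-3 minus IP14D-1 and 3 and 23 for IP20D-3 minus IP14D-101. Median scaling also moved the median of all genes, to -0.21 for IP14D-1 minus CL11, 0.12 for IP14D-101 minus CL11, -0.11 for IP20D-3 minus CL11, 0.32 for IP14D-101 minus IP14D-1 and -0.23 for IP20D-3 minus IP14D-101. Without scaling the first 4 of these medians were 0.35, -0.15, -0.20 and -0.51, and that of IP20D-3 minus IP14D-1 was -0.56. Against MEF the median moved with median scaling to 0.29 in CL11, 0.39 in IP14D-101 and 0.20 for IP20D-3, and without scaling it moved to -0.34, -0.51 and -0.52. Over all 10 comparisons of the 44 genes, and counting differences called under at least 1 of the scalings compared, 53 of 440 turned sign on unscaled signals and 0 with median scaling or quantile normalization. None of the 53 was among the between-line differences of at least 0.5 given below. Other probe sets of the called genes, where above background, had the same sign between lines in 26 of 31 for IP14D-1 minus CL11, 8 of 9 for IP14D-101 minus CL11, 19 of 19 for IP20D-3 minus CL11, 25 of 32 for IP14D-101 minus IP14D-1, 21 of 24 for IP20D-3 minus IP14D-1 and 12 of 15 for IP20D-3 minus IP14D-101.

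Counts of few genes also hung on single arrays. Higher genes in IP14D-1 than in CL11 fell to 2 without IP14D-1 replicate 2 or CL11 replicate 2 and to 3 without IP14D-1 replicate 1, CL11 replicate 1 or CL11 replicate 3. Those in IP14D-101 fell to 0 without CL11 replicate 2 or 3 and 1 without CL11 replicate 1, and the lower ones to 3 without CL11 replicate 1 or 2. Those in IP20D-3 fell to 2 without IP20D-3 replicate 1 or CL11 replicate 2 or 3. Higher genes in IP20D-3 than in IP14D-1 fell to 6 without IP20D-3 replicate 1 or 2 or IP14D-1 replicate 1 and to 7 without IP14D-1 replicate 2, and than in IP14D-101 to 3 without IP20D-3 replicate 2.

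**Figure D5:**
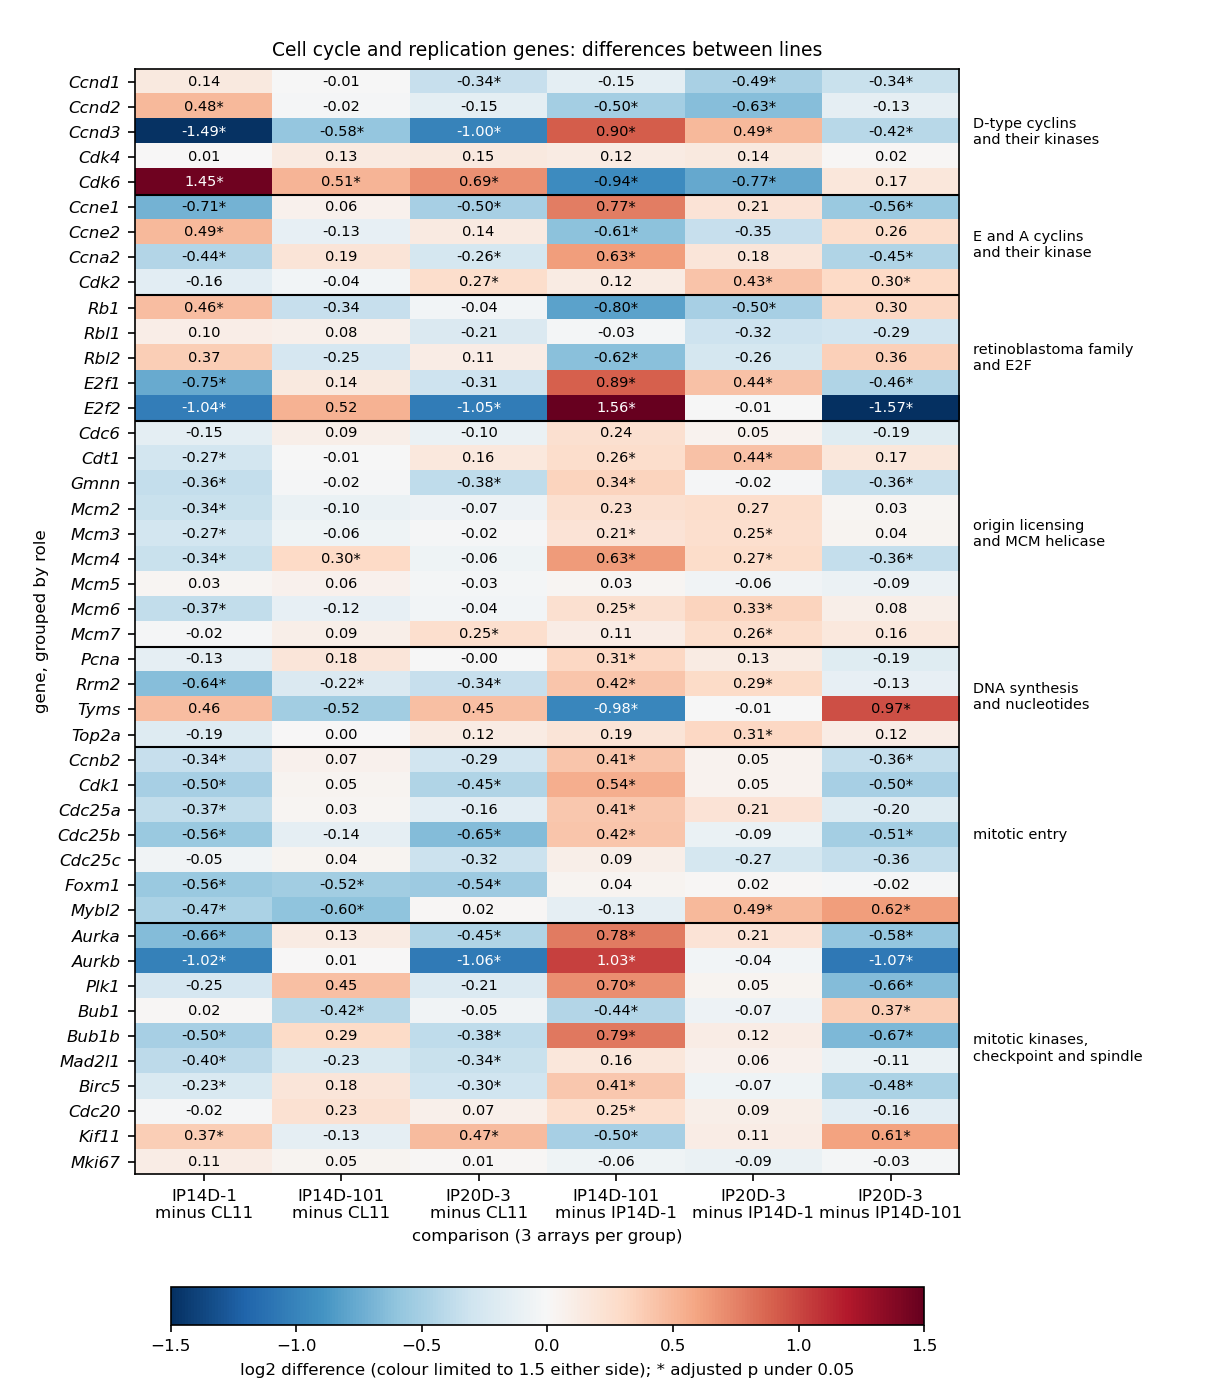
Log2 difference between each pair of lines (columns, 3 arrays per group) for the 44 genes (rows, grouped by role), with an asterisk where the adjusted p was under 0.05. Ccnd3, Cdk6, E2f2 and Aurkb hold the differences of at least 1 from CL11, and the many small differences against IP14D-1 change direction on unscaled signals (31 genes lower in IP20D-3 than in IP14D-1).

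Differences of at least 1 log2 unit from CL11 were found for Ccnd3, Cdk6, E2f2 and Aurkb, whose values by array are given above. Cdk6 was higher in IP14D-1 than in CL11 by 1.45 ± 0.15 (adjusted p = 1.86e-06), 2.74-fold, with no overlap of arrays, and its second bright probe set gave 1.62. It was also higher in IP20D-3, by 0.69 ± 0.15 (0.47 on unscaled signals, adjusted p = 0.0785), and in IP14D-101, by 0.51 ± 0.15, though the last call was lost without any one of the CL11 arrays or IP14D-101 replicate 1 or 2 (0.35 to 0.52, adjusted p = 0.0864 to 0.169). Ccnd3 was lower than in CL11, with differences of -1.49 ± 0.10 in IP14D-1, -0.58 ± 0.10 for IP14D-101 and -0.9997 ± 0.10 in IP20D-3. With its 3 probe sets averaged, the 3 values were -0.45, -0.42 and -0.04 and did not pass (adjusted p = 0.196, 0.327 and 0.938), and with median scaling the IP14D-101 value was -0.47 (adjusted p = 0.0551).

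Aurkb fell into a pair of levels. It was lower than in CL11, with differences of -1.02 ± 0.10 in IP14D-1 and -1.06 ± 0.10 in IP20D-3 (adjusted p = 9.26e-07 and 5.67e-07), and IP14D-101 was above IP14D-1 by 1.03 ± 0.10 and above IP20D-3, whose difference from IP14D-101 was -1.07 ± 0.10. The arrays of the 2 levels did not overlap, and its second probe set gave -0.86 for IP14D-1 minus CL11. E2f2 was ordered in the same way, with -1.04 ± 0.37 and -1.05 ± 0.37 against CL11 and with 1.56 ± 0.37 and -1.57 ± 0.37 for IP14D-101 minus IP14D-1 and IP20D-3 minus IP14D-101. Its second probe set gave -2.58 for IP14D-1 minus CL11 and 2.82 for IP14D-101 minus IP14D-1. The E2f2 arrays of IP20D-3 and CL11 overlapped. Its calls against CL11 were near the threshold (adjusted p = 0.0471 and 0.0489) and were lost without CL11 replicate 1 (-0.88 and -0.89), CL11 replicate 3 (-1.0002 and -1.01), any one IP14D-1 array (-0.92 to -1.16), or IP20D-3 replicate 1 or 3 (-0.74 and -0.90).

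Other G1 and mitotic genes differed by 0.5 to 1. Ccne1 was lower in IP14D-1 and IP20D-3 than in CL11, at -0.71 ± 0.11 and -0.50 ± 0.11, and so was Cdc25b, at -0.56 ± 0.13 and -0.65 ± 0.13. E2f1 was lower in IP14D-1 than in CL11, at -0.75 ± 0.12, and higher in IP14D-101 than in IP14D-1, at 0.89 ± 0.12, and neither passed with all probe sets averaged (-0.81 and 0.83, adjusted p = 0.0791 and 0.0616). Aurka and Rrm2 were lower in IP14D-1 than in CL11, at -0.66 ± 0.08 and -0.64 ± 0.06. IP14D-101 exceeded IP14D-1 in Aurka by 0.78 ± 0.08, Plk1 by 0.70 ± 0.15, Bub1b by 0.79 ± 0.10, Ccna2 by 0.63 ± 0.09, Cdk1 by 0.54 ± 0.07 and Mcm4 by 0.63 ± 0.08. Of these, Ccna2, Cdk1, Mcm4 and Plk1 did not pass on unscaled signals, at 0.15, 0.064, 0.15 and 0.22, nor did Cdc25b and Rrm2 for IP14D-1 minus CL11, at -0.23 and -0.31 (adjusted p = 0.355 and 0.0516). With all probe sets averaged, Aurka was 0.19 for IP14D-1 minus CL11 (adjusted p = 0.808) and 0.16 for IP14D-101 minus IP14D-1 (adjusted p = 0.83), Bub1b turned to -0.24 for IP14D-101 minus IP14D-1 (adjusted p = 0.618), Mcm4 was 0.23 there (adjusted p = 0.0672), and Ccne1 was -0.55 for IP20D-3 minus CL11 (adjusted p = 0.073). A second bright probe set of Mcm4 gave -0.16 for IP14D-101 minus IP14D-1, and one of Bub1b -2.59.

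Foxm1 and Mybl2, the activators of mitotic genes, had patterns of their own. Foxm1 was higher in CL11 than in all 3 iPS lines, which differed from it by -0.56 ± 0.12 in IP14D-1, -0.52 ± 0.12 for IP14D-101 and -0.54 ± 0.12 in IP20D-3. The call was lost on unscaled signals in IP14D-1 (-0.23) and with median scaling in IP14D-101 (-0.40), and with its probe sets averaged in all 3 iPS lines (-0.44, -0.34 and -0.65). Mybl2 was lower in IP14D-101 than in CL11, at -0.60 ± 0.07, and IP20D-3 minus IP14D-101 was 0.62 ± 0.07. Its second probe set, above background, gave -0.034 and -0.074 for the same 2 comparisons, the latter of opposite sign.

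Some genes were lower in IP14D-101 than in IP14D-1, and for Tyms, Rb1, Ccne2 and Rbl2 the third IP14D-101 array was the lowest of its group. The same array was also the lowest for Cdk6, Bub1 and Kif11, which were lower in IP14D-101 than in IP14D-1 as well. For IP14D-101 minus IP14D-1, Tyms differed by -0.98 ± 0.23, Rb1 by -0.80 ± 0.14, Ccne2 by -0.61 ± 0.15 and Rbl2 by -0.62 ± 0.22. The Rbl2 call was lost without IP14D-1 replicate 1 or 2 or IP14D-101 replicate 2 or 3, at -0.49 to -0.59 (adjusted p = 0.0902 to 0.144), with median scaling at -0.26 (adjusted p = 0.429), with quantile normalization at -0.33 (adjusted p = 0.287) and with its probe sets averaged at -0.38 (adjusted p = 0.192). The Ccne2 call was lost with median scaling, at -0.25 (adjusted p = 0.183), and the Tyms call with its probe sets averaged, at -0.86 (adjusted p = 0.321). The median SD of the 44 genes over the 3 arrays was 0.14 in IP14D-101, the largest of the lines, beside 0.06 in CL11, 0.09 in IP14D-1 and 0.10 in IP20D-3, and it was 0.11 in MEF.

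Markers of other cell types moved with the lines. The 7 primitive endoderm markers were all above background in CL11 and IP14D-101, with summed signals of 152901 to 159841 and 121014 to 131154, while 3 of 7 were in IP14D-1 (17824 to 18841) and 2 of 7 in IP20D-3 (12751 to 15855). Gata6, Sox17, Foxa2 and Pdgfra were below background in both of the latter, and Gata4 in IP20D-3. The 3' to 5' ratio of the actin probe sets, a measure of RNA integrity, was 1.21 ± 0.02 in CL11, 1.37 ± 0.04 for IP14D-1, 1.22 ± 0.06 for IP14D-101, 1.28 ± 0.03 for IP20D-3 and 1.16 ± 0.02 in MEF (SD, n = 3). Its mean was lower in CL11 and IP14D-101 than in the other pair of lines. The arrays of IP14D-101 and IP20D-3 overlapped, however, with IP14D-101 replicate 1 at 1.286 and IP20D-3 replicates 1 and 3 at 1.247 and 1.283. In MEF, Gata6, Pdgfra and Dab2 of the endoderm list were above background as well. By number above background, fibroblast and feeder markers were highest in IP14D-1. By summed signal IP20D-3 was highest, at 259013 to 316409, beside 225474 to 240072 in IP14D-1. Against CL11, 6 of 12 were higher and 0 lower in IP14D-1 (median 1.25), beside 11.7% and 12.6% of all genes (median 0.03). Against IP14D-1, 0 were higher and 6 lower in IP14D-101 (median -1.17), beside 14.9% and 13.1% of all genes (median -0.04). In IP20D-3, 1 was higher and 6 lower than in IP14D-1 (median -0.98), beside 4.87% and 4.32% of all genes (median -0.02). Cdk6 and Ccnd2, both higher in MEF than in the lines, were also highest among the lines in IP14D-1 in this fit. With all probe sets averaged, Cdk6 was -0.04 for both IP14D-101 and IP20D-3 minus IP14D-1 (adjusted p = 0.924 and 0.958). Ccnd2 for IP14D-101 minus IP14D-1 was then -0.35 (adjusted p = 0.125), and -0.14 with median scaling (adjusted p = 0.48). The part of other cell types and of RNA integrity in the differences between lines was not tested.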

How the data were processed

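The authors deposited 1 table of linear signal intensity values per probe set for 15 arrays, made with Affymetrix Expression Console and MAS5 per the submitters' processing notes, with no versions given and no log2 transform applied. Of 45101 probe sets, 64 controls were left out, 34945 named 1 gene in the platform annotation, 932 several and 9160 none. From the deposited intensities each array was scaled to a common trimmed mean (2% cut at each end), 16 was added and log2 was taken. The added 16 understates differences of dim genes, though only slightly beside a background signal of 2106. Depth does not apply to arrays, and the 3 arrays per group limit the precision. Each gene was represented by its brightest probe set, which gave 18193 genes.

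All 5 groups entered 1 linear model per gene in limma 3.58.1 (R 4.3.3) with moderated variances and a trend on mean level, with Benjamini-Hochberg adjustment over all genes, and this procedure was tested on simulated data. Folds against a group below background are lower bounds, "at least", with each array of the dim group that lies below background raised to it. Other scalings, pseudocounts, probe set choices, a filter on dim genes, a replicate block, another variance prior, fewer arrays in the fit and leaving out each array were tried. The replicate numbers did not pair the arrays: deviations of same-numbered arrays correlated at -0.03 to 0.03 over 30 pairs.

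The genes and lists were chosen with earlier results of these data known. By the naming rule, values of every array are given, in each role, for the gene with the largest rise and the gene with the lowest difference by the mean of the 4 comparisons with MEF, and for genes that differed from CL11 by at least 1 in an iPS line. From the other lists, all CDK inhibitors and up to 2 called genes with the largest mean difference were named. Promoter sequences are from RefSeq on GRCm38.p6.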

Additional observations from a re-analysis of the deposited data

Results flagged for a closer look

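For 4 genes the difference from MEF was not the same in all lines by at least 1 log2 unit, tested directly as the difference between lines in the limma model. Ccnd3 differed by -1.49 and Cdk6 by 1.45 between IP14D-1 and CL11. E2f2 differed by -1.04 for IP14D-1 minus CL11, -1.05 for IP20D-3 minus CL11, 1.56 for IP14D-101 minus IP14D-1 and -1.57 for IP20D-3 minus IP14D-101. Aurkb differed by -1.02, -1.06, 1.03 and -1.07 in the same 4 comparisons.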

How the results depend on the processing

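The precision rests on 3 arrays per group, signals near background such as those of E2f2 are the least certain, and line and genetic background cannot be told apart for IP14D-101. Counts against MEF stayed within 1.5 times under all alternatives run except genes lower in IP14D-101 with median scaling (3) and lower in IP20D-3 on unscaled signals (7). Counts between lines moved more, and the causes were not tested.

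On unscaled signals, higher and lower counts were 8 and 5 for IP14D-1 minus CL11, 6 and 18 for IP14D-101 minus IP14D-1 and 0 and 31 for IP20D-3 minus IP14D-1, and higher counts were 0 for IP14D-101 and for IP20D-3 minus CL11 and 3 for IP20D-3 minus IP14D-101. With median scaling, higher counts were 1 for IP14D-1 and 2 for IP20D-3 minus CL11 and 3 for IP20D-3 minus IP14D-101, and lower counts 1 for IP14D-101 minus CL11, 3 for IP14D-101 minus IP14D-1 and 2 for IP20D-3 minus IP14D-1. With all probe sets averaged, higher and lower counts were 3 and 11, 1 and 2, and 2 and 9 for IP14D-1, IP14D-101 and IP20D-3 minus CL11, 14 and 4 for IP14D-101 minus IP14D-1 and 2 and 2 for IP20D-3 minus IP14D-1, and 22 genes varied among the lines. Without a variance trend, higher counts were 2, 0 and 2 against CL11 in the same order and 5 for IP20D-3 minus IP14D-1, and the lower count for IP14D-101 minus CL11 was 3. With only the arrays compared, it was 3 too, and higher counts were 1 for IP14D-101 minus CL11 and 3 for IP20D-3 minus IP14D-101.

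Leaving out 1 array, higher counts against MEF were 38 in CL11, 36 to 37 in IP14D-1, 37 to 39 in IP14D-101 and 36 to 37 in IP20D-3, and lower counts 3 to 4, 3, 5 and 3. Between lines, higher and lower counts were 2 to 4 and 17 to 22 for IP14D-1 minus CL11, 0 to 3 and 3 to 4 for IP14D-101 minus CL11, 2 to 4 and 13 to 15 for IP20D-3 minus CL11, 18 to 21 and 7 to 8 for IP14D-101 minus IP14D-1, 6 to 9 and 3 to 4 for IP20D-3 minus IP14D-1, and 3 to 5 and 15 to 16 for IP20D-3 minus IP14D-101. The F test over the lines gave 31 to 36.

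Of the 440 differences of the 44 genes, 12 turned sign with all probe sets averaged and 53 on unscaled signals, counting those called with or without the change. Those among the differences given in the text were, with all probe sets averaged, Cdk2 minus MEF in CL11 (-0.82), IP14D-1 (-0.43) and IP14D-101 (-0.87), Ccnd3 in IP14D-101 minus MEF (-0.33), Aurka in IP14D-1 minus CL11 (0.19), and Bub1b in IP14D-101 minus IP14D-1 (-0.24). Bub1b in IP20D-3 minus IP14D-101, not given above, turned from -0.67 to 0.22. On unscaled signals Ccnd1 and Rbl1 turned in IP14D-101 (-0.14 and -0.23) and IP20D-3 (-0.54 and -0.59), as did Ccnd3 (-0.26), Cdc25b (-0.041) and Mki67 (-0.034) in IP20D-3, all minus MEF. Outside the 44 genes, the inhibitor gene Cdkn2d turned with median scaling in IP14D-101 minus MEF (0.12).

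Over the 440 differences of the 44 genes, pseudocounts of 1 and 64 changed 0 calls and 1000 added 2. The replicate block, tried although the numbers do not pair the arrays, ended 7 calls among the 440 and turned 0 signs, among them E2f2 in IP14D-1 and IP20D-3 minus CL11 (-1.04 and -1.05, adjusted p = 0.0615 and 0.0636).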
